A study of Mus musculus with 21 samples.

Results

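Sciatic nerves of Trembler mice (TR) were compared with those of mice without Pmp22 (KO) at postnatal day 4 (P4), to ask how a mutated Pmp22 allele and the loss of the gene differ in the nerve's RNA. The arrays were chosen by their labels alone: the 3 TR and the 3 KO arrays at P4, 6 of 21 in the series. KO mice were null for Pmp22 on both copies. TR mice carried the Trembler mutation of Pmp22, and the labels do not say on how many copies or on which strain. P4 wild type mice (WT, mixed background, 3 arrays) are given beside them as the background, and 2 TR and 2 KO arrays at P60 as the later age. No group was treated. Each array held RNA of 1 pool of nerves from 4 to 7 mice, amplified in 2 rounds of in vitro transcription, and the sexes of the pooled mice are not labelled. The nerve is a mixed tissue in which fewer cells of a type and less RNA per cell cannot be told apart.

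PMP22 is a membrane protein with several membrane-spanning segments that Schwann cells make in large amounts when they form compact myelin. Trembler is a missense allele, and mutant PMP22 of this kind is known to be held back in the secretory pathway and to gather in cytoplasmic aggregates, whereas the null allele makes no protein to fold. Cells meet misfolded proteins with cytosolic chaperones under heat shock factors, with the unfolded protein response of the endoplasmic reticulum, with the ubiquitin-proteasome system and with autophagy. Peripheral myelin is also rich in cholesterol, which Schwann cells synthesise themselves.

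Values are the authors' expression index, a model-based intensity on a linear scale that can be compared between arrays but not between probe sets. Differences are log2, TR minus KO, after a floor of 54.7, and are given ± standard error of a limma fit to all 21 arrays with Benjamini-Hochberg adjustment over 10994 probe sets; a probe set was called at an adjusted p below 0.05. The median index of the 6 arrays ran from 181.3 to 197.7, and between 79.4% and 80.3% of probe sets lay above the floor. Over probe sets, log2 values of TR arrays correlated with each other at r from 0.932 to 0.974 and with KO arrays at 0.929 to 0.974, while KO arrays correlated with each other at 0.976 to 0.986. No scan day held both a TR and a KO array at P4, so that scan day and genotype cannot be told apart without other groups as a bridge. Schwann cell markers were present in every group: 9 of 12 were measured, none lay at the floor, and their summed index was 20130 to 20570 in TR, 18800 to 20900 in KO and 20930 to 22080 in WT. Pmp22, the gene altered in these mice, is 1 of the 9, and bright probe sets weigh most in the sum. It is therefore no independent measure of Schwann cell content. Xist and Eif2s3y, which mark sex, did not overlap between the groups, though neither was called. Xist, transcribed from the inactive X chromosome, read 499, 476 and 725 in KO and 1111, 1192 and 942 in TR (adjusted p = 0.691). Eif2s3y of the Y chromosome read 138, 151 and 104 in KO and 27.7, 3.71 and 23.4 in TR (adjusted p = 0.368). Kdm5d, also of the Y chromosome, was near the floor and differed by -0.09 (adjusted p = 0.859). Uty, a further Y gene, lay under the floor on all 6 arrays. Of 37 called probe sets with 1 symbol, 0 lay on X or Y; 3.11% of those tested lie on X. The part of the pools' sex makeup in the results was not tested.

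Pmp22 itself was read by a bright and a dim probe set. The bright one measured 4839, 5424 and 5129 in KO, 6779, 7383 and 5875 in TR, and 6840, 7682 and 7093 in WT. All TR arrays lay above all KO arrays, yet the KO level was far from 0 and the difference of 0.38 ± 0.11 was not called (adjusted p = 0.245). The dim one measured 38.0, 40.2 and 38.6 in KO, all under the floor, and 61.3, 60.5 and 49.5 in TR (adjusted p = 0.917). Which stretch of the gene either probe set covers, and whether the deleted part lies there, was not known, so neither checks the labels.

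TR and KO nerves differed at 45 probe sets, 0.409% of those tested, 28 higher (0.255%) and 17 lower (0.155%) in TR, and 8.77% had an unadjusted p under 0.05. Differences ran from 0.339 to 4.31 in size, beside a median size of 0.176 over all probe sets, and the 6 arrays did not overlap between the groups at any of the 45. Over all probe sets the arrays did not overlap at 617 that were higher (5.61%) and 875 that were lower (7.96%). Of the 45, 37 had 1 gene symbol and stood for 35 genes. The largest differences belonged to the inducible Hsp70 genes, as the plot of log2 differences against p-values shows. The count rested on the pooled estimate of error and on single arrays: it was 6 with only the 6 arrays in the fit, 23, 20 and 38 without 1 KO array, 21 and 27 without P4_TR_1 or P4_TR_2, and 164 without P4_TR_3, where the lower calls became the majority (59 higher, 105 lower). With scan day as a fixed block it was 6, and 43 of the 45 kept their sign; as a random block it was 39. Of the 37 with a symbol, 29 passed with the random block; Smndc1 (adjusted p = 0.125), Evi5 (0.0995), Epb41l4b (0.0982), Flii (0.156), Wnk1 (0.0908), Sfn (0.0995), Serpinc1 (0.0904) and Dnajc3 (0.175) did not. Among the 37, 13 passed whichever 1 of the 6 arrays was left out. Those 13 were Hspa1a, Hspa1b, Snhg6, AI506816, the Mir686 probe set, Clvs1, Prdx2, Adk, Sqstm1, Rprm, Cxcl10, Asns (its dim probe set) and Rfc1.

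**Figure D1:**
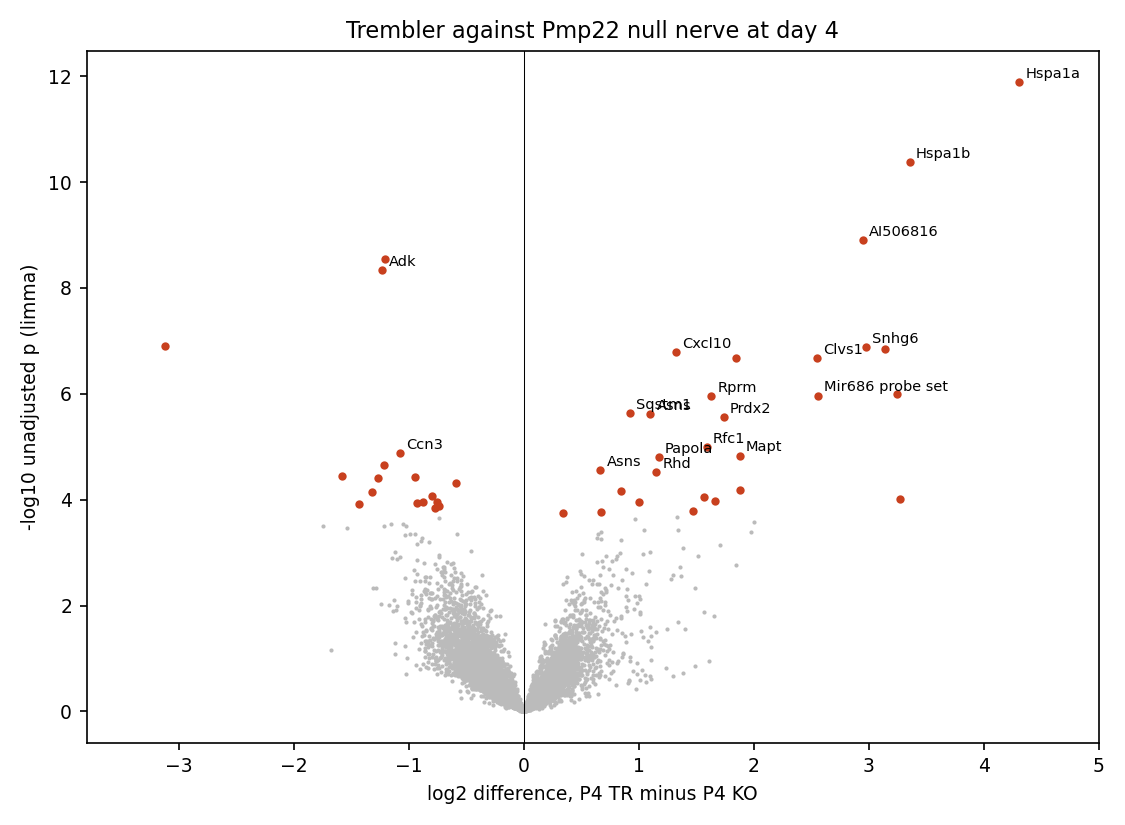
Each point is 1 of 10994 probe sets, with the log2 difference between TR and KO at P4 on the horizontal axis and minus log10 of the unadjusted p of the limma fit on the vertical axis. Red points are the 45 probe sets called, and Hspa1a and Hspa1b stand farthest up and to the right at 4.31 and 3.36.

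The strongest contrast lay in the inducible Hsp70 genes. Hspa1a and Hspa1b encode nearly identical cytosolic chaperones that are switched on by heat shock factor when unfolded protein builds up. Hspa1a read 95.4, 87.9 and 73.5 in KO, 1933, 1242 and 1990 in TR, and 71.0, 73.9 and 92.0 in WT. KO and WT nerves were near the floor, and each TR array was over 1000. The difference was 4.31 ± 0.24, a 19.8-fold rise (adjusted p = 1.43e-08). Hspa1b read 588, 393 and 336 in KO, 4382, 4338 and 4389 in TR, and 365, 450 and 334 in WT, a rise of 3.36 ± 0.23 or 10.2-fold (adjusted p = 2.29e-07). Against WT, the TR value was 4.42 for Hspa1a and 3.52 for Hspa1b, while the KO value was 0.12 and 0.17; these comparisons share the WT arrays. Both genes passed without any 1 array, and the fit on the 6 arrays alone called Hspa1a at an adjusted p of 0.0192 and Hspa1b at 0.0311. With scan day as a fixed block, the difference was 5.60 for Hspa1a (adjusted p = 0.0454) and 4.08 for Hspa1b, which was then not called (adjusted p = 0.113). Signal can pass between the probe sets of these close copies, and how far each gene rose on its own is uncertain.

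The promoters of Hspa1a, Hspa1b, Hsph1 and Asns are shown because 2 of them are near copies of each other and because each holds a motif of the stress response that the gene is known to take part in. The 250 bases before the start site come from RefSeq (GRCm38.p6), 5′ to 3′. The Hspa1a stretch and the Hspa1b stretch differ at 3 of 250 positions. Capitals mark paired heat shock units, GAANNTTC in Hspa1a and Hspa1b and TTCNNGAA in Hsph1, and in Asns the C/EBP-ATF response element TGATGNAA.
Hspa1a (chr17:34972157-34972406, minus strand): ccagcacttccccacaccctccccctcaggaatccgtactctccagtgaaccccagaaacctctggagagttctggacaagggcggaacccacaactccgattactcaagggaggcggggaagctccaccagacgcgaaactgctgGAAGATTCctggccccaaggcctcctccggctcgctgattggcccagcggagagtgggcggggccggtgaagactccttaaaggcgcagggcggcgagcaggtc
Hspa1b (chr17:34959239-34959488, minus strand): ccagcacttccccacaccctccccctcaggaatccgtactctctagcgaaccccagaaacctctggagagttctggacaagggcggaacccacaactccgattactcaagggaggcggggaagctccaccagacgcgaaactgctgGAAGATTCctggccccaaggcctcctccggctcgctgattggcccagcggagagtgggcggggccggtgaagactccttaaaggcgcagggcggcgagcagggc
Hsph1 (chr5:149636337-149636586, minus strand): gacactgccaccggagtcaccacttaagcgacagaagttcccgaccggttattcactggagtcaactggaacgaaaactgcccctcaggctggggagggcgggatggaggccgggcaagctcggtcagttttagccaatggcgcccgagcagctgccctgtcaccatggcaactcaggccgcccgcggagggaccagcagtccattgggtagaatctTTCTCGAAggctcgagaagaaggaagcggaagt
Asns (chr6:7693210-7693459, minus strand): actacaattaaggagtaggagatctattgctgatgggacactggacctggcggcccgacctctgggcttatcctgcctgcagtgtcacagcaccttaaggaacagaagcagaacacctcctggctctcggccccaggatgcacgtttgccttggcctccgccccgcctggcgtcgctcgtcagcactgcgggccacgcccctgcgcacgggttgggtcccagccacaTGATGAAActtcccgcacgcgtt
Both strands were searched in 32851 promoters cut to the same 250 bases. GAANNTTC was in 6.69% of them, TTCNNGAA in 7.17%, the motif of 3 heat shock units in 0.466% and TGATGNAA in 3.45%. Of 29 called genes with a promoter in the table, Hspa1a, Hspa1b and Asns held GAANNTTC, Hsph1, Glo1 and Zfp97 held TTCNNGAA, none held the 3-unit motif, and Asns and Sfn held TGATGNAA. A gene was counted when any of its promoters matched, whereas the percentages are per promoter, so the 2 are not alike. A match describes these letters and is not evidence of binding.

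Beyond Hsp70, the other called chaperones moved less. Hsph1, an Hsp110 nucleotide exchange factor that works with Hsp70, read 737, 580 and 598 in KO, 1256, 909.5 and 1301 in TR, and 613, 529 and 600 in WT. Its difference was 0.85 ± 0.16 (adjusted p = 0.0251). Hsp90aa1, the inducible cytosolic Hsp90, read 2776, 2924 and 2738 in KO, 4332, 4617 and 4480 in TR, and 2171, 1846 and 2106 in WT, with little spread within any group. It rose by 0.67 ± 0.14 (adjusted p = 0.0432), and its TR minus WT value was 1.14 beside a KO minus WT value of 0.47. Each lost its call without some arrays, Hsph1 at an adjusted p up to 0.164 and Hsp90aa1 up to 0.194. In the list of heat shock and cytosolic chaperone genes, 36 of 40 were measured by the brightest probe set of each gene, 4 rose and 0 fell, beside 0.221% and 0.104% of 7703 genes. The list's median was 0.10, beside -0.029 over all genes. Against WT, the list's median was 0.375 in TR and 0.349 in KO, beside 0.018 and 0.038 over all genes. Both of these comparisons share the WT arrays. As a list, the chaperones thus lay above WT by a similar amount in both mutants. The other 32 ranged from Hspa2 (-0.64), a further Hsp70 family member, to Chordc1 (0.41), a co-chaperone of Hsp90.

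**Figure D2:**
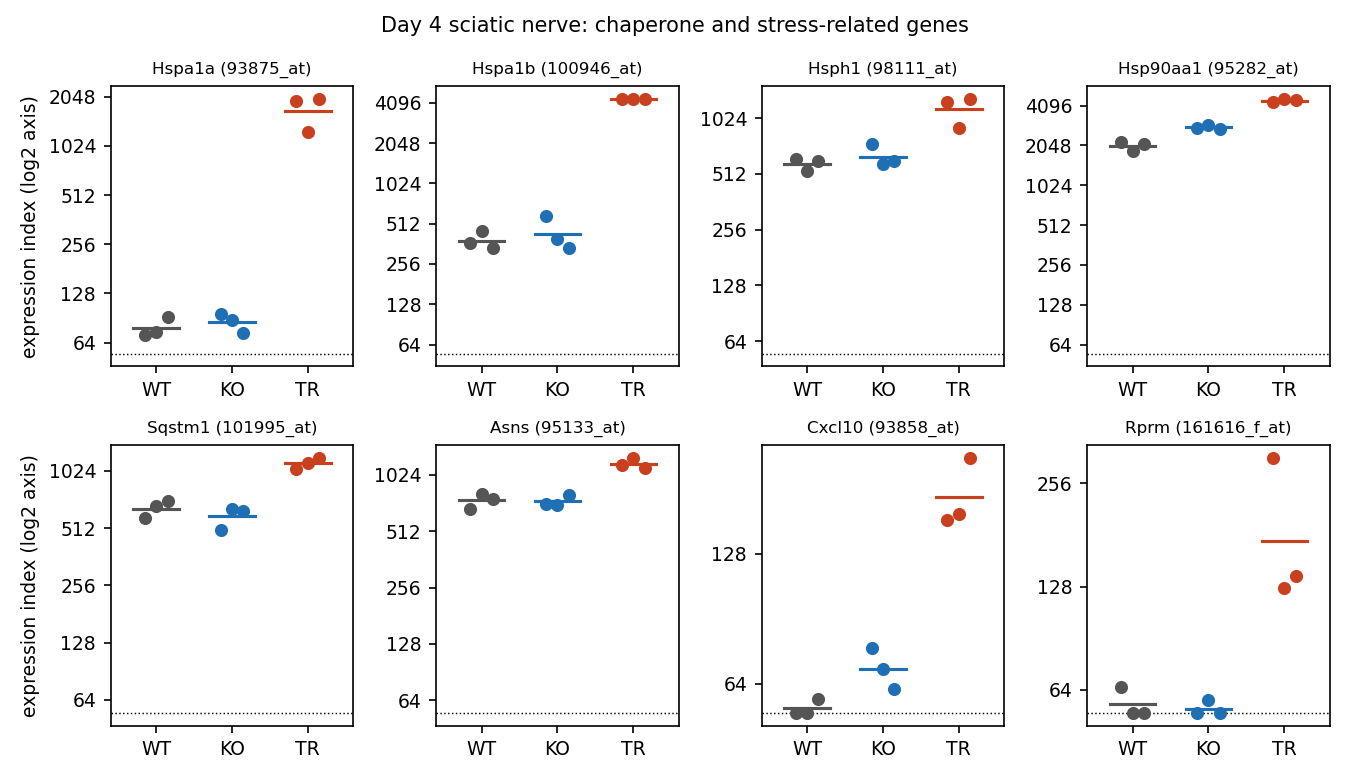
Expression index on a log2 axis for 8 called probe sets in WT, KO and TR nerves at P4, with 1 point per pool, a bar at the geometric mean of the 3 pools and a dotted line at the floor of 54.7, at which lower values are drawn. In each panel the 3 TR points lie above every KO and WT point.

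Outside the cytosolic chaperones, single genes of the stress pathways rose. Sqstm1 encodes p62, which carries ubiquitinated protein to autophagosomes. It read 502, 645 and 633 in KO, 1042, 1126 and 1196 in TR, and 575, 667 and 711 in WT, a rise of 0.92 ± 0.13 (adjusted p = 0.00166) that held without any 1 array. By the brightest probe set of each gene it was the only 1 of 31 measured lysosome and autophagy genes to be called. Of all genes, 0.221% were called higher and 0.104% lower. The list's median was -0.25. Asns, asparagine synthetase, is a target of ATF4 in the amino acid response. Its bright probe set read 716, 710 and 799 in KO and 1151, 1260 and 1119 in TR (0.67 ± 0.12, adjusted p = 0.0130), and its dim one read 55.6, 56.7 and 56.0 against 117, 108 and 139 (1.10 ± 0.16, adjusted p = 0.00166). In the integrated stress list, Asns was 1 of 24 genes and the only one called, beside the same shares of all genes, with a median of 0.05. Slc3a2, the shared heavy chain of amino acid transporters, was 0.64 (adjusted p = 0.0897), and Ddit4, a stress-induced brake on mTOR, was -0.83 (adjusted p = 0.0978).

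The unfolded protein response of the endoplasmic reticulum gave 0 limma calls among 25 measured genes by the brightest probe set, and 1 unadjusted p under 0.05, with a median of -0.16 and 20 of 25 values below 0. Hsp90b1 (0.01), Hyou1 (0.08), Xbp1 (-0.44) and Dnajb9 (-0.58), chaperones and a transcription factor that mark this response, did not pass, and neither did Ddit3, which encodes CHOP (0.40, adjusted p = 0.623). Dnajc3, an endoplasmic reticulum co-chaperone that restrains the kinase PERK, was called by 1 probe set at 106, 109 and 139 in KO and 247, 196 and 268 in TR. WT nerves read 278, 248 and 220 there, and its brightest probe set was 0.96 (adjusted p = 0.0539). A fixed block for scan day turned both values of Dnajc3 below 0. Sec63, a partner of the protein channel of the endoplasmic reticulum, rose from 99.4, 104 and 55.2 to 262, 284 and 241 (1.66 ± 0.33, adjusted p = 0.0325), and the WT arrays spanned both at 253, 165 and 98.8. In the ubiquitin and proteasome list, 0 of 31 genes were called and 6 had an unadjusted p under 0.05. The TR arrays lay above all KO arrays at 13 of them and below at 0, beside 5.44% and 8.49% of all genes. The list's median was 0.23. Its highest values belonged to subunits of the regulatory cap, Psmd1 (0.67, adjusted p = 0.359), Psmc1 (0.65, adjusted p = 0.362) and Psmd4 (0.54, adjusted p = 0.506).

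Among called genes outside these pathways, Cxcl10, Rprm, Clvs1, Mapt, Sfn and 1 probe set of Ctsc (described with the next genes) were above both KO and WT in every TR array. Cxcl10, a chemokine induced by interferon, read 77.2, 69.2 and 62.1 in KO, 154, 159 and 213 in TR, and 40.2, 50.1 and 59.1 in WT (1.32 ± 0.16, adjusted p = 1.98e-04). It was the only call among 31 measured genes of antigen presentation and interferon response, whose median was 0.00. Of all genes, 0.221% were called higher and 0.104% lower. Rprm, which encodes reprimo, a brake on the cell cycle downstream of p53, read 54.6, 59.6 and 46.4 in KO and 304, 127 and 137 in TR (1.63 ± 0.22, adjusted p = 8.55e-04). Its WT arrays were 65.3, 32.5 and 54.1, at or near the floor. Clvs1, clavesin 1, a lipid-binding protein of clathrin-coated vesicles, read 113, 170 and 86.6 in KO, 739, 597 and 758 in TR, and 204, 214 and 308 in WT, a rise of 2.55 ± 0.31 (adjusted p = 2.14e-04). Mapt, which encodes the microtubule protein tau, read 97.8, 123 and 74.7 in KO and 437, 304 and 335 in TR at a called probe set (1.88 ± 0.31, adjusted p = 0.00809). A second probe set of Mapt was called at 1.88, and the brightest was 0.67 (adjusted p = 0.347). Sfn, stratifin, had the smallest difference of the called probe sets, 0.34 ± 0.07 (adjusted p = 0.0437).

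At other probe sets that were higher in TR, KO nerves stood below WT and TR nerves lay among or near the WT values. Snhg6, a small nucleolar RNA host gene, read 58.5, 47.5 and 51.3 in KO, 522, 282 and 582 in TR, and 662, 490 and 403 in WT. The difference of 2.98 ± 0.35 (adjusted p = 1.98e-04) stood beside a TR minus WT value of -0.20 and a KO minus WT value of -3.18. AI506816, an expressed sequence without a named product, read 43.5, 65.0 and 64.4 in KO, 417, 355 and 715 in TR, and 433, 332 and 465 in WT (2.95 ± 0.25, adjusted p = 4.58e-06). The probe set annotated to the miRNA gene Mir686, which reads longer RNA and not the mature miRNA, had 223, 223 and 203 in KO, 1205, 970 and 1758 in TR, and 1341, 643 and 1180 in WT.

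Prdx2, a peroxiredoxin that removes hydrogen peroxide, read 323, 453 and 227 in KO, 1236, 1053 and 946 in TR, and 713, 666 and 1055 in WT at a called probe set. It rose by 1.74 ± 0.25 (adjusted p = 0.00175), but the gene's brighter probe set was -0.19 (adjusted p = 0.870), so the gene's direction depends on the probe set. Ctsc, cathepsin C, a lysosomal protease, likewise was 3.28 ± 0.65 at its called probe set (adjusted p = 0.0314), and 2.00 (adjusted p = 0.0586) and -0.94 (adjusted p = 0.347) at the others. At the called probe set it read 146, 5.37 and 107 in KO, 997, 804 and 964 in TR, and 686, 313 and 616 in WT. Rfc1, a subunit of the clamp loader of DNA replication, read 218, 183 and 166 in KO, 562, 548 and 588 in TR, and 454, 462 and 733 in WT (1.59 ± 0.26, adjusted p = 0.00613), and was -0.37 at its other probe set (adjusted p = 0.649). Papola, a poly(A) polymerase, was 1.17 and Wnk1, a kinase that controls chloride transport, was 1.47, with WT arrays again near the TR ones. Rhd, a red cell blood group protein, read 126, 115 and 104 in KO, 257, 234 and 275 in TR, and 229, 215 and 296 in WT. Serpinc1, antithrombin, lay at the floor on all KO arrays and was at least 2.96-fold higher in TR, at 116, 200.2 and 184, but its WT arrays were higher still at 640, 392 and 243.

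**Figure D3:**
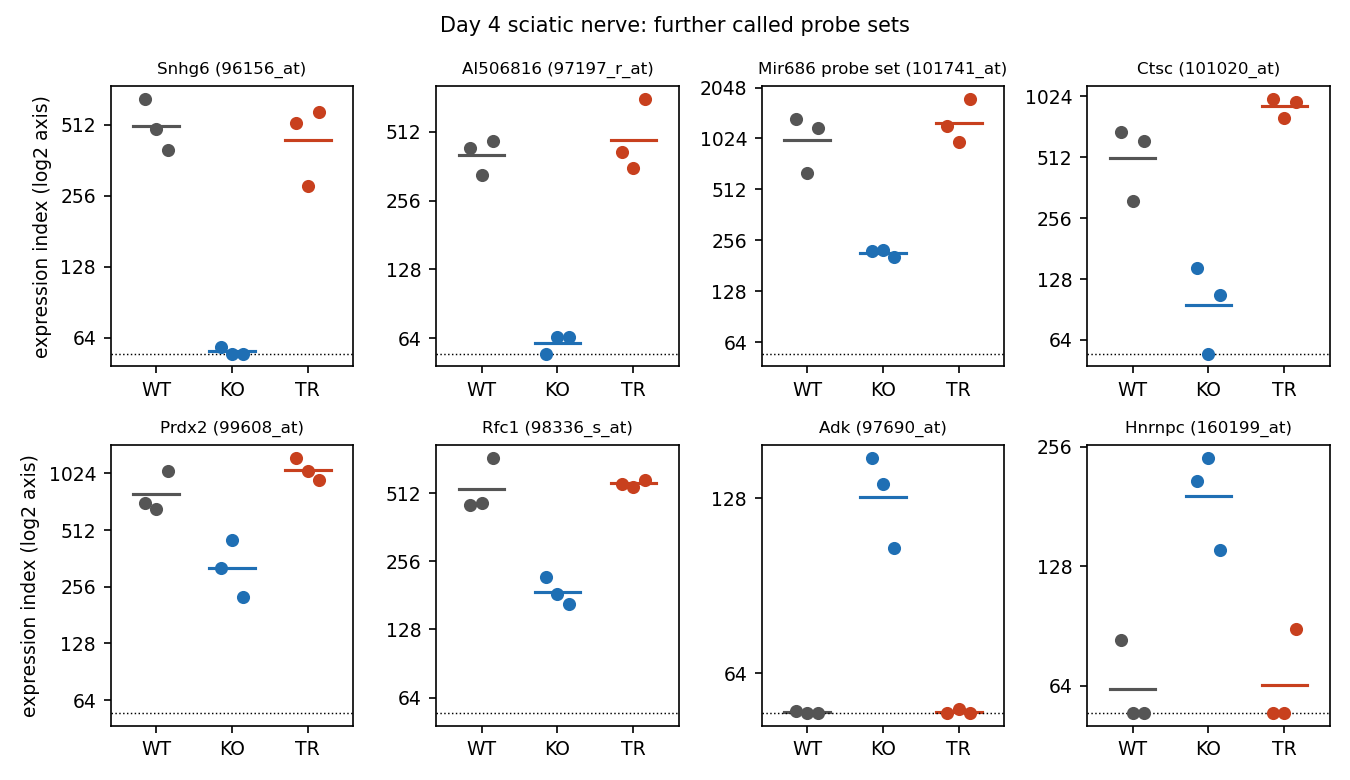
Expression index on a log2 axis for 8 further called probe sets in WT, KO and TR nerves at P4, drawn as 1 point per pool with a bar at the geometric mean and a dotted line at the floor of 54.7, at which lower values are drawn. At Snhg6, AI506816, Mir686 and Rfc1 the KO points lie below all TR and WT points, and at Adk and Hnrnpc they lie above them.

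The lowest of the 17 lower calls was a probe set without 1 gene symbol, which read 776.5, 1010 and 1734 in KO, 122, 125 and 136 in TR, and 235, 666.5 and 293 in WT (-3.12 ± 0.36, adjusted p = 1.98e-04). Those with a symbol had smaller differences, and several met the floor. Ccn3, a secreted matrix-associated regulator also called Nov, read 1569, 1837 and 1523 in KO, 808, 738 and 789 in TR, and 1538, 1171 and 1282 in WT. It fell by 1.07 on the log2 scale (± 0.18, adjusted p = 0.00773), and every TR array was below every KO and WT array; without P4_KO_2 it lost its call (adjusted p = 0.0725). Glo1, glyoxalase 1, which detoxifies methylglyoxal, read 2257, 2505 and 2538 in KO, 1440, 1285 and 1470 in TR, and 1676, 1525 and 1700 in WT (-0.80 ± 0.16, adjusted p = 0.0291). Evi5, a regulator of Rab GTPases and cell division, read 840, 953 and 944 in KO, 558, 484 and 607 in TR, and 1024, 776 and 987 in WT (-0.74 ± 0.15, adjusted p = 0.0356). Smndc1, a splicing factor, read 915, 874 and 859 in KO, 244, 334 and 426 in TR, and 596, 446 and 587 in WT (-1.44 ± 0.29, adjusted p = 0.0335). In these 4 genes TR was the lowest group. Glo1 nevertheless lay further from WT in KO (0.57) than in TR (-0.23), and Smndc1 about equally far (0.71 and -0.72). Ncam2, a neural cell adhesion molecule (-0.95), Mterf2, a mitochondrial transcription termination factor (-0.93), and Zfp97, a zinc finger protein (-1.27), were lower at levels near the floor.

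Other lower calls had KO as the group that stood apart. Adk, adenosine kinase, read 150.2, 136 and 105 in KO, 42.1, 55.6 and 16.7 in TR, and 55.2, 25.5 and 21.8 in WT, so that TR and WT lay about the floor (-1.23 ± 0.11, adjusted p = 1.03e-05). Its brightest probe set was -0.61 (adjusted p = 0.250). Hnrnpc, an RNA-binding protein of nascent transcripts, read 209.5, 240 and 140.5 in KO, 51.7, 29.4 and 88.8 in TR, and 83.6, 31.4 and 54.5 in WT (-1.58 ± 0.28, adjusted p = 0.0157). Dtymk, thymidylate kinase, was under the floor on all TR arrays and fell by at least 0.58 on the log2 scale, and was -0.04 at its other probe set. Epb41l4b, a FERM domain protein (-0.75), and Flii, an actin-binding protein (-0.77), were likewise close to the floor in TR and WT, and a fixed block for scan day turned Flii to 0.25. Other probe sets of called genes did not pass, and those of Wnk1 (-0.15 and 0.90), Snhg6 (-0.06), Dnajc3 (-0.34) and Epb41l4b (-0.03) included values near 0 or of the other sign. By RefSeq, 4 of the 37 called probe sets lie on chromosome 11, which also carries Pmp22 (Sqstm1, Flii and both of Mapt), where 8.93% of those tested lie.

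Most genes of lipid synthesis had values below 0, and none was called in the fit to all arrays without a block or array weights. In the cholesterol list, limma called 0 of 17 measured genes and 6 had an unadjusted p under 0.05. The TR arrays lay below all KO arrays at 7 of the 17 and above at 1, beside 8.49% and 5.44% of all genes. Values below 0 numbered 13, and the median was -0.34. Hmgcs1, which makes the HMG-CoA for the pathway's rate-limiting step, read 2159, 3078 and 2319 in KO, 1049, 1124 and 1190 in TR, and 3604, 3466 and 3690 in WT. Its difference of -1.15 ± 0.25 missed the threshold (adjusted p = 0.0626), with KO between TR and WT, and with scan day as a random block it was -1.32 and passed (adjusted p = 0.0451). Ebp, a sterol isomerase, was -0.96 (adjusted p = 0.214) and passed without P4_TR_3 (adjusted p = 0.0474). Hsd17b7, which acts in the same pathway, went the other way at 1.36 (adjusted p = 0.206), with 79.8, 68.9 and 64.7 in KO, 221, 107 and 257 in TR, and 508, 302 and 285 in WT, but was -0.30 with scan day as a fixed block. Against WT, the list's median was -1.06 in TR, with 10 of 17 genes called lower (0.338% of all genes), and -0.64 in KO, with 1 called lower (0.182% of all genes). The 2 comparisons share the WT arrays. In the fatty acid and myelin lipid list, 0 of 21 were called and 4 had an unadjusted p under 0.05, with a median of -0.29. The TR arrays lay below all KO arrays at 8 of the 21 and above at 2, beside 8.49% and 5.44% of all genes. Scd1, which desaturates fatty acids, read 2660, 2856 and 2647 in KO, 1972, 1779 and 1705 in TR, and 4711, 4971 and 4555 in WT (-0.58 ± 0.13, adjusted p = 0.0782). Of 21 alternative settings, Hmgcs1 and Ebp passed in 2 each. Hsd17b7, Scd1 and the list members Degs1 and St3gal5 passed in 1 each. Apoe, the apolipoprotein that carries lipid in injured nerve, was chosen after its values were seen. It read 5263, 5719 and 5197 in KO, 1673, 1564 and 1574 in TR, and 1353, 4205 and 2441 in WT, so that the groups of interest stood well apart while WT was spread over both (-1.75, adjusted p = 0.0639). The fit on the 6 arrays alone, which does not take in the spread of the WT arrays, called it.

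Myelin and Schwann cell genes showed no call in the fit to all arrays without a block or array weights. Of 16 myelin protein genes, 5 were measured, 0 called by limma and 1 had an unadjusted p under 0.05. Mbp, a structural protein of compact myelin, read 4411, 4964 and 5089 in KO and 4221, 4808 and 4272 in TR (-0.12, adjusted p = 0.780). Mal, a raft proteolipid of myelin, was -0.55 with TR below KO on all arrays (adjusted p = 0.551). Egr2, which drives myelination, was -0.05, and the list of 21 Schwann cell transcription regulators gave 0 calls and 3 unadjusted p under 0.05 at a median of -0.06. In the list of immature, non-myelinating and injured Schwann cells, 0 of 21 were called and 3 had an unadjusted p under 0.05, at a median of -0.009. Its lowest member, S100b, a calcium-binding protein of Schwann cells, read 365, 501 and 476 in KO, 222, 145 and 215 in TR, and 673, 733 and 895 in WT (-1.22 ± 0.27, adjusted p = 0.0639). With scan day as a random block it was -1.44 and passed (adjusted p = 0.0315). Fabp7, a fatty acid binding protein of immature glia, was high on 1 array only, at 444 in P4_TR_1 beside 74.2 and 41.0 in the other TR pools. Of 21 alternative settings, S100b passed in 3, among them the fit without P4_TR_3 (adjusted p = 0.0464). Mal, Fabp7 and the list members Egr1, Pou3f2, Id2 and Sparc passed in 1 each, and Gjb1 and Mag in 0.

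**Figure D4:**
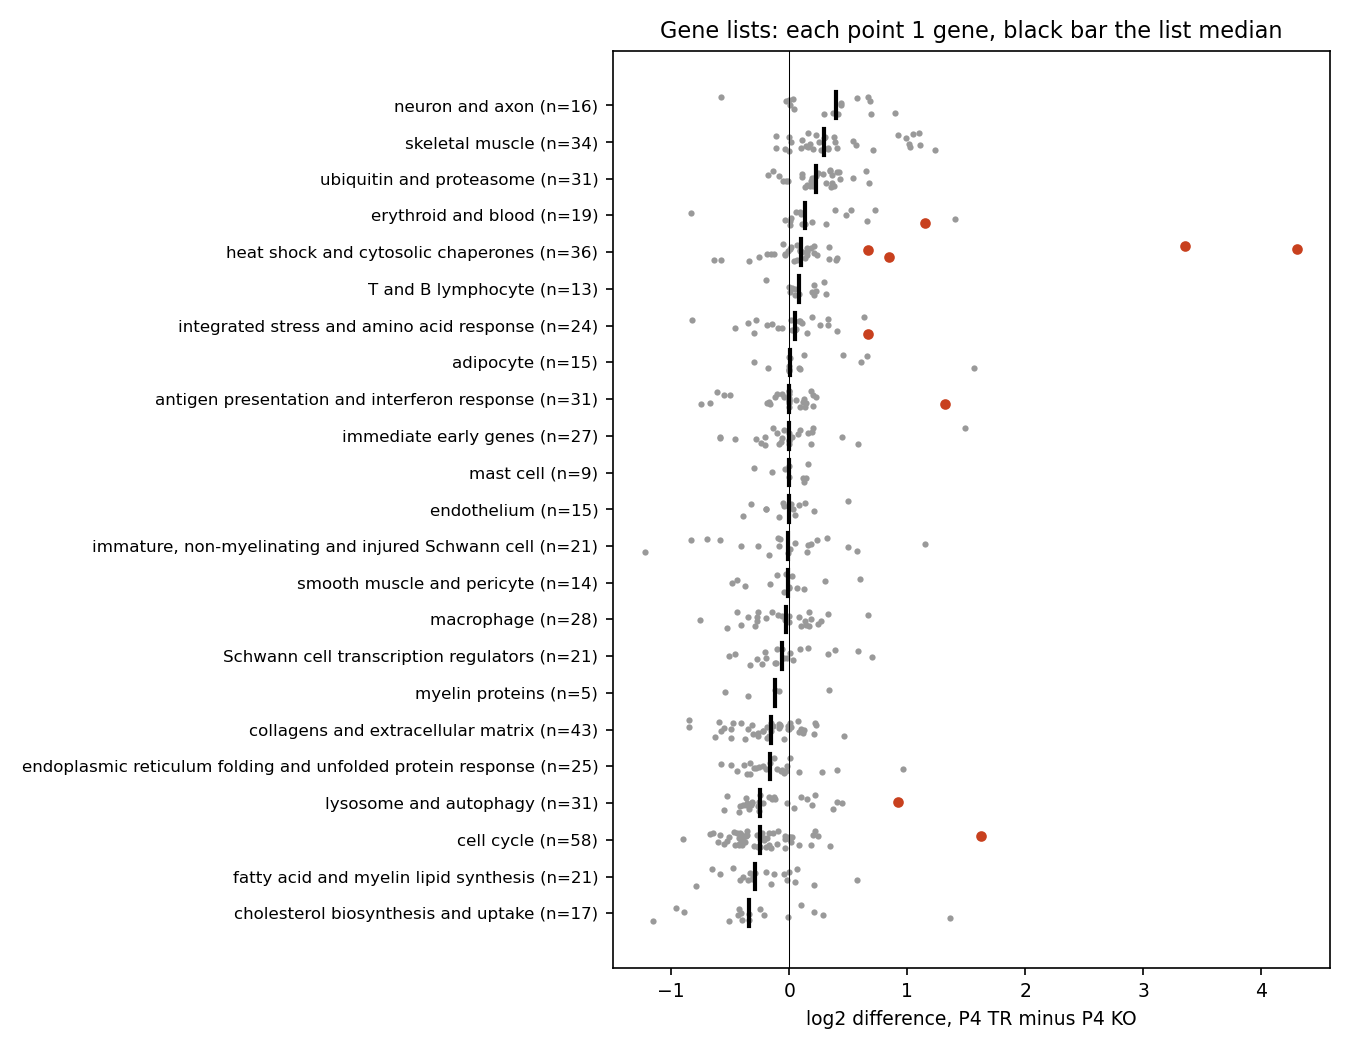
Each point is 1 gene by its brightest probe set, with the log2 difference between TR and KO at P4 on the horizontal axis and the 23 gene lists on the vertical axis in the order of their medians. Black bars are list medians and red points are called genes, of which the heat shock list holds 4, with medians running from -0.34 for cholesterol to 0.39 for neuron and axon genes.

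Lists of other cell types and of growth gave few calls. The cell cycle list had 58 measured genes, of which 46 were below 0, with a median of -0.25. Rprm was its 1 call, beside 0.221% of all genes called higher. Against WT, the list's median was 0.28 in TR and 0.57 in KO, beside 0.018 and 0.038 over all genes. Both mutants thus lay above WT, and KO lay further above it. These comparisons share the WT arrays. Aurkb, a mitotic kinase, read 1369, 1366 and 1025 in KO, 762, 514 and 1206 in TR, and 778, 496 and 665 in WT. Its difference was -0.67 (adjusted p = 0.558), with P4_TR_3 among the KO values. Collagen and matrix genes gave 0 calls of 43 and 5 unadjusted p under 0.05 at a median of -0.16. Lum, the matrix proteoglycan lumican, read 2622, 2798 and 2847 in KO and 1700, 1472 and 2244 in TR (-0.63, adjusted p = 0.189). Macrophage (28), mast cell (9), lymphocyte (13), immediate early (27), adipocyte (15), endothelium (15) and smooth muscle (14) genes gave 0 calls, with medians from -0.03 to 0.08. An unadjusted p under 0.05 was met by 4 immediate early genes, 1 adipocyte gene and 0 of the other lists. Their extremes were Car3 in the adipocyte list (1.57, adjusted p = 0.419) and Ccr2 in the macrophage list (-0.76, adjusted p = 0.623).

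Markers of neighbouring tissue differed between single pools. Skeletal muscle genes gave 0 calls of 34 and 1 unadjusted p under 0.05 at a median of 0.30, and the summed index of 9 muscle markers was 1914 to 4529 in KO, 3449 to 5591 in TR and 2843 to 11470 in WT. Erythroid genes gave 1 call of 19, Rhd, beside 0.221% of all genes called higher, and 4 unadjusted p under 0.05. Their median was 0.14, with 17 values above 0 and 2 below. The summed index of 4 erythroid markers was 1633 to 2860 in KO, 1730 to 8127 in TR and 1790 to 7532 in WT. Neuron and axon genes gave 0 calls of 16 and 5 unadjusted p under 0.05, at the highest of the 23 list medians, 0.39. The TR arrays lay above all KO arrays at 5 of the 16 and below at 0, beside 5.44% and 8.49% of all genes. Uchl1, a neuronal ubiquitin hydrolase, read 82.9, 89.6 and 77.7 in KO and 185, 129 and 155 in TR (0.89, adjusted p = 0.212), but was -0.52 with scan day as a fixed block. Prph, the intermediate filament peripherin, was 0.69 (adjusted p = 0.322). The sum of 6 neuronal markers was 1220 to 1320 in KO and 1179 to 1757 in TR. The part of these tissues in the called genes, Rhd and Mapt among them, was not tested.

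At P60 the same genotypes differed at 740 probe sets (6.73%), 592 of them higher in TR (5.38%) and 148 lower. The split moved with the scaling, to 460 higher and 277 lower with median scaling and 459 and 260 after quantile normalization, and with single arrays, to 45 and 48 without P60_KO_2 and 49 and 60 without P60_TR_1. The test of the difference between the ages called 373 probe sets (3.39%), 72 more positive at P4 (0.655%) and 301 more positive at P60 (2.74%). Those counts were 114 and 226 with median scaling, 91 and 153 after quantile normalization, 7 and 3 without P60_KO_2, and 24 and 13 without P60_TR_1. Inducible Hsp70 was higher in TR at both ages with a smaller difference at P60. Hspa1a read 375 and 251 in KO and 1543 and 2209 in TR at P60, a difference of 2.59 ± 0.29, and the age test gave 1.72 ± 0.37 (adjusted p = 0.0267). The TR arrays of the 2 ages overlapped, while KO and WT arrays, the latter at 396, 385 and 628, read higher at P60 than at P4. Hspa1b was 1.84 ± 0.28 at P60, with 1.51 ± 0.36 for the age test (adjusted p = 0.0346). Hsph1 was 0.64 and Hsp90aa1 0.56 at P60, and their age tests did not pass (adjusted p = 0.680 and 0.811). The heat shock list had 10 of 36 genes higher at P60 and the proteasome list 19 of 31, beside 5.87% of all genes, with medians of 0.61 and 0.99. These list counts at P60 were not repeated with other scalings or with arrays left out.

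**Figure D5:**
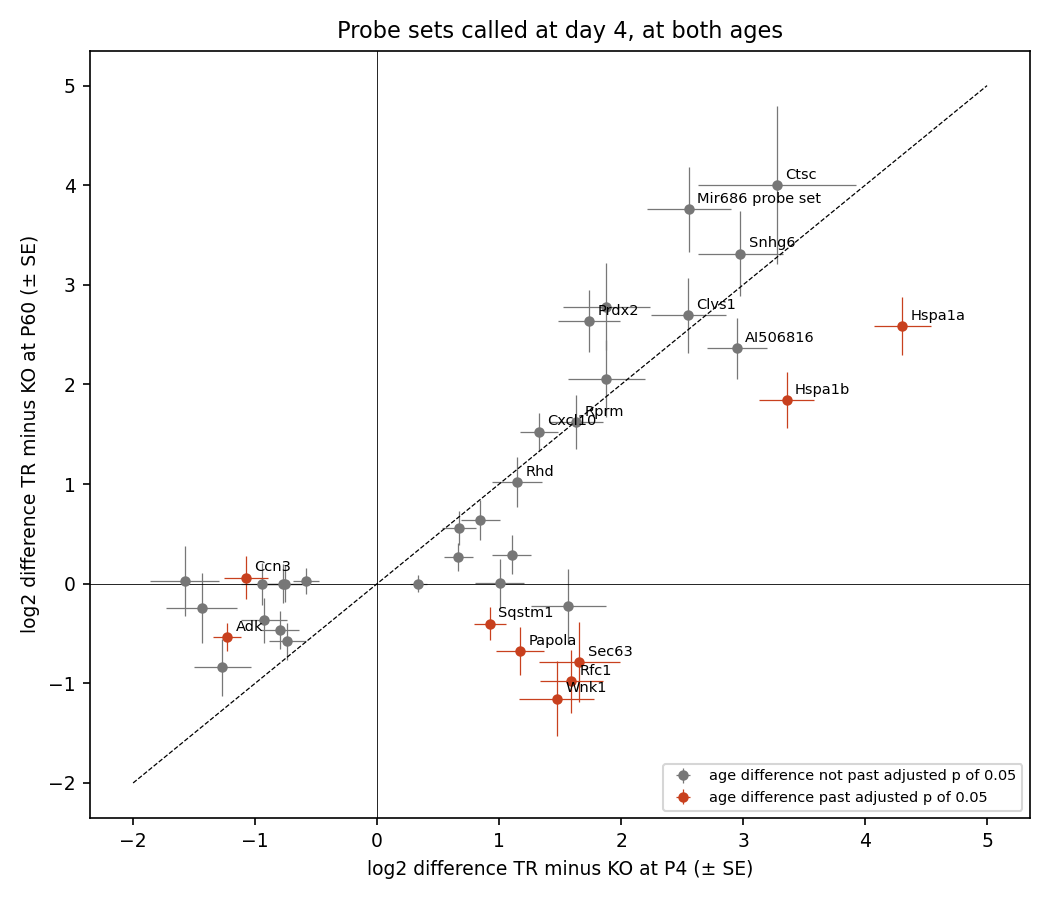
Each point is 1 probe set called at P4 with 1 gene symbol, with the log2 difference between TR and KO at P4 on the horizontal axis and at P60 on the vertical axis, both with standard errors; the dashed line marks equal values. Red points passed the test of a difference between the ages, among them Hspa1a and Hspa1b below the line and Sqstm1, Papola, Sec63, Rfc1 and Wnk1 below 0 at P60.

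Sqstm1, called at 0.92 at P4, was -0.40 at P60 and not called there (adjusted p = 0.153), where KO read 1924 and 2504, TR 1628 and 1699, and WT 1419, 1582 and 1368. The age test gave 1.33 ± 0.21 (adjusted p = 0.0078). Cxcl10 was 1.53 and Rprm 1.62 at P60, with age differences of -0.20 ± 0.25 and 0.01 ± 0.35. Ctsc at that probe set was 4.00 at P60, Snhg6 3.31, Clvs1 2.69 and AI506816 2.37, and their age tests did not pass. Rfc1, Papola, Sec63 and Wnk1 were below 0 at P60, from -0.68 for Papola to -1.15 for Wnk1, and each passed the age test. None of these 4 was called at P60 itself (adjusted p = 0.0718 for Rfc1, 0.102 for Papola, 0.280 for Sec63 and 0.0755 for Wnk1). Ccn3 was 0.06 at P60, beside -1.07 at P4 (adjusted p = 0.0400 for the age test).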

How the data were processed

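RNA of pooled sciatic nerves was hybridised to Affymetrix MG_U74Av2 arrays. Per the labels, the authors ran dChip on the scanner output, with smoothing-spline normalization, and deposited its model-based expression index, which is a linear intensity and drops below 0 for some weak probe sets. The labels give 27 arrays as the base of the probe sensitivities, and 18 in 1 WT label at P60; dChip's version and probe model are not stated in them. An index model shared by arrays can smooth differences of weak probe sets.

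The floor of 54.7 was the value below which 20 percent of the deposited values lay. It was applied before log2, so differences of dim probe sets are understated. A probe set was tested when at least 2 of 21 arrays exceeded the floor (10994 of 12422; 1428 were dimmer). The model held a mean for each of 8 groups over all 21 arrays (limma 3.58.1 with R 4.3.3, 13 residual degrees of freedom, eBayes trend), and Benjamini-Hochberg adjustment used 0.05. The script was tested on simulated data. Replicates are pools, so a p-value reflects the spread between pools and arrays and not between mice, and the number of arrays limits the precision. Printed spreads (±) are standard errors of the fit.

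Names were used for the 10833 probe sets to which the platform annotation gives 1 symbol (396 had several, 1193 none); 10817 of them were found in RefSeq GRCm38.p6 by Entrez identifier. Probe sets ending in _f_at, _s_at, _r_at, _i_at or _g_at may pick up related transcripts. Gene lists used the brightest probe set of each of 7703 genes: 547 of 661 listed symbols were measured, on 23 lists. Named genes were Pmp22, the 10 highest and 10 lowest calls, the 3 smallest p-values of each list and, for the age test, 3 each way. The remaining called genes, Apoe, and list members given as extremes or well-known markers were added after their values were seen. The members and lists were chosen with earlier results of these data known. Alternatives were the floor, the filter, scaling, the arrays in the fit, the trend, array weights, scan day (10 days, per the file headers) as a block, the replicate number as a block, and leaving out arrays. Leaving out the 2 latest scanned of the 6 arrays was chosen after seeing the data.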

Additional observations from a re-analysis of the deposited data

Results flagged for a closer look

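The difference between TR and KO changed with age at 373 probe sets by limma's test of the difference itself. Of the genes named by rule or called at P4, 18 were among them. Mapkbp1, which was added later, was also among them (adjusted p = 0.0454). The values below are the P4 difference minus the P60 difference on the log2 scale, and each P60 group had 2 arrays.

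Among genes called at P4, the value was 1.72 for Hspa1a, 1.51 for Hspa1b, 1.33 for Sqstm1, 2.57 for Rfc1, 2.63 for Wnk1, 2.45 for Sec63 and 1.85 for Papola. It was -0.69 for Adk and -1.13 for Ccn3.

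The value of Xist was 5.26, with 524 and 2228 in KO against 7.61 and 3.47 in TR at P60. At P4 all TR arrays were above all KO arrays. Gbp2b, an interferon-induced GTPase, had 3.06: the P60 KO arrays read 511 and 408, and the P4 KO, P4 TR and P60 TR arrays lay under the floor. The P60 WT arrays read 319.9, 188 and 12.9. Pnp, a purine salvage enzyme, had -3.55, Fstl1, a secreted glycoprotein, -3.52, and Fap, a fibroblast surface protease, -3.19. In these 3 genes P60_KO_2 was the lowest array, at 39.8, 63.6 and 53.6. Their P4 differences, from -0.68 to -0.42, did not pass the test.

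Members of the gene lists gave -0.92 for the proteasome subunit Psmb2, -0.97 for Id2, a partner that blocks helix-loop-helix proteins, -2.21 for Aurkb and -1.30 for Lum. In each of these 4 the P4 difference itself was not called.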

How the results depend on the processing

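All day 4 calls are limited by 3 pools a group, by the error pooled over 21 arrays, and by scan days that hold no TR array together with a KO array. Weak probe sets near the floor have only a bound. Pairing by replicate number was not detected, and 3 pairs are too few to settle it. Same-numbered TR and KO arrays deviated together at r of 0.25, -0.31 and -0.11, and other pairs at -0.25 to 0.37. With the replicate block there were 50 calls at P4, 42 of them shared, and 640 for the age test.

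The P4 count of 45 was 6 with the compared groups only (2 shared, and 1013 unadjusted), 6 with scan day as a fixed block (3 shared), and 1614 with array weights, which ran from 0.379 for P4_TR_3 to 3.34 for P4_TR_1 among the 6 arrays. It ranged from 20 to 164 with 1 array left out, and was 82 (24 higher, 58 lower, 30 shared) without P4_TR_3 and P4_KO_3. Other floors, filters, scalings, the trend and scan day as a random block gave 35 to 54, and the 12 P4 arrays only gave 30.

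The age count of 373 was 219 with no filter, 244 after quantile normalization, 29 with the compared groups only, 4 with scan day as a fixed block, 46 as a random block, and 10 to 1393 with 1 array left out, lowest without P60_KO_2 and highest without P60_KO_1. The P60 count of 740 was 0 with the compared groups only (limma; 1022 unadjusted), 87 with array weights, 6 and 299 with scan day as a fixed and a random block, and 93 to 1530 with 1 array left out.

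Signs were followed for the probe sets named by rule and the called ones with 1 symbol. Among these, values changed sign only with scan day as a block. As a random block, the dim probe set of Pmp22 became -0.035. As a fixed block it became -0.52, Flii 0.25, Dnajc3 -0.094 and -0.21, Hsd17b7 -0.30, Gjb1 -0.023, Id2 0.55 (0.22 in the age test), Cma1 0.55, Cd79a -0.34, Col18a1 0.098, Atf3 0.066, Des -0.11, Cacna1s -0.18, Vwf -0.072 and Uchl1 -0.52. The cause was not tested.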

Other observations

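Restricted to the 6 arrays, limma called 6 probe sets, among them Apoe, Gria4 and Mapkbp1 besides Hspa1a and Hspa1b. Gria4, a subunit of AMPA glutamate receptors, read -55.8, -126.5 and -91.9 in KO, 229, 211 and 207 in TR, and 216, -168.6 and 154 in WT, and had an adjusted p of 0.0765 in the fit to all arrays. Mapkbp1, a scaffold protein of kinase signalling, read 52.7, 43.5 and 44.8 in KO and 68.3, 69.0 and 67.0 in TR, close to the floor (adjusted p = 0.518 over all arrays). Both were chosen after their values were seen.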
